A study of Homo sapiens with 42 samples.

Results

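The erythrocyte membrane skeleton and its glycophorins were followed through 8 genes of the 58243 in the count tables, found by their Ensembl identifiers: SLC4A1, EPB42, ANK1, SPTB, EPB41, TMOD1, GYPB and GYPC. The cells were K562, an established human line derived from chronic myeloid leukemia in blast crisis, whose proliferation is driven by the BCR-ABL1 kinase and which keeps erythroid traits. Cells were left untreated (CTRL), or received 1 µM imatinib (IM), an inhibitor of that kinase, for 1, 6 or 18 h; 5 µM JTE-607 (JTE), an inhibitor of the endonuclease that cleaves pre-mRNA 3′ ends, for 1, 6 or 18 h; or 110 mM KCl, a hyperosmotic shock, for 1 or 3 h. Poly(A) mRNA was sequenced from all 9 of these groups in 27 libraries, and nuclear RNA depleted of ribosomal RNA from 5 of them (CTRL, IM 1h, IM 18h, JTE 1h and KCl 1h) in 15 libraries, with 3 biological replicates per group. All results come from 1 cell line, and K562 cells do not complete red cell maturation, so these are transcript levels in a leukemic model and not in erythroblasts.

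The red cell membrane is held in shape by a protein lattice on its inner face. Long spectrin tetramers, whose β chain SPTB encodes, are joined at short actin filaments that protein 4.1 (EPB41) stabilizes and tropomodulin (TMOD1) caps. The lattice hangs from the bilayer at a pair of anchor points: band 3 (SLC4A1), the anion exchanger, bound through ankyrin (ANK1) and protein 4.2 (EPB42), and glycophorin C (GYPC), bound through protein 4.1. Glycophorin B (GYPB) is a sialoglycoprotein that carries blood group antigens. Inherited defects of spectrin, ankyrin, band 3, protein 4.1 or protein 4.2 cause spherocytosis or elliptocytosis.

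The members lie on 8 chromosomes of GRCh38. SLC4A1 (ENSG00000004939) spans 44248385 to 44268141 on chromosome 17, EPB42 (ENSG00000166947) 43106225 to 43221283 on chromosome 15, and SPTB (ENSG00000070182) 64746283 to 64879883 on chromosome 14, all on the minus strand. ANK1 (ENSG00000029534) spans 41653220 to 41896762 on chromosome 8 and GYPB (ENSG00000250361) 143996104 to 144019345 on chromosome 4, also on the minus strand. EPB41 (ENSG00000159023) spans 28887091 to 29120046 on chromosome 1, GYPC (ENSG00000136732) 126655933 to 126696675 on chromosome 2, and TMOD1 (ENSG00000136842) 97501180 to 97601748 on chromosome 9, on the plus strand. Counts were taken over exons without regard to strand, so exon sequence shared with a neighbor limits a gene's counts: such sequence made up 45.0% of the exon length of TMOD1 (with TSTD2), 34.8% of EPB42 (mostly with CCNDBP1), 23.1% of SPTB (mostly with PLEKHG3), 7.8% of ANK1, 5.8% of EPB41 and none of SLC4A1, GYPB and GYPC. GYPB belongs to a family of near-identical copies that includes GYPE, and only uniquely aligned reads were kept, so its values are uncertain.

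RefSeq start sites were at hand for 6 members (10 windows of the 250 bases before a start, GRCh38.p14). A GATA word, taken as AGATAA or TGATAA or AGATAG or TGATAG on either strand, was present in 6 of these 10 windows and in 22.3% of the 35116 windows of all genes. The 2 GYPB windows overlap by 215 bases and share 1 of these words, so the 9 words found lie at 8 positions, in 5 of the 6 members. SPTB, GYPB and EPB41 have 2 windows each, and 1 of each is shown. SPTB was taken because it carries 2 GATA words, GYPB because it rose steeply under imatinib, and EPB41 because its mRNA changed least. The windows shown for SPTB and EPB41 are those with GATA words, and the other window of each held none. Capitals mark GATA words, which appear as CTATCT or CTATCA where they read on the opposite strand.

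SPTB, chr14:64879908-64880157, minus strand: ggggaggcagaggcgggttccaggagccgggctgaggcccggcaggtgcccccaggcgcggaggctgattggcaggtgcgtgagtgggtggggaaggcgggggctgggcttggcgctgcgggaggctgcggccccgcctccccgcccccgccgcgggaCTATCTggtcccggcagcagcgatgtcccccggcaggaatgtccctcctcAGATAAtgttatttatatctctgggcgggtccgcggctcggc
GYPB, chr4:144019381-144019630, minus strand: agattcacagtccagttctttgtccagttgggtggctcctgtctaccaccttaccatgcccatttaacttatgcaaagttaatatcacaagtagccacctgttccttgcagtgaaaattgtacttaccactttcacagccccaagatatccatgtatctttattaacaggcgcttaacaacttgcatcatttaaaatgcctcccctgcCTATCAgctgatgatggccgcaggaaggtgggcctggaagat
EPB41, chr1:28886850-28887090, plus strand: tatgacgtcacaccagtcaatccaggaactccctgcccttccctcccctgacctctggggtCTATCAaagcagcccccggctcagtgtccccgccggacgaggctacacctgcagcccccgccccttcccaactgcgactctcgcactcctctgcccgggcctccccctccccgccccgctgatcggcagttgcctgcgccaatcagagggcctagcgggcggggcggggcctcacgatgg

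In the SPTB window shown, AGATAA begins 42 bases before the start on the gene's strand and AGATAG lies on the opposite strand at 92 bases. The GYPB and EPB41 windows shown each hold 1 TGATAG on the opposite strand, at 42 and 189 bases. The letters CCNCNCCC, searched on both strands, occurred in 7 of the 10 windows and in 53.4% of all windows. The EPB42 window held AGATAA at 208 and at 61 bases before the start, and the first TMOD1 window held none of these words. All 250 bases of the EPB42 window lie in exons of the annotation used for the counts. So do 225 bases of the GYPC window, which held 1 AGATAG. A word in a window is a description and not a binding site.

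Library totals ran from 16439848 to 62953314 counts in mRNA and from 16175394 to 25103205 in nuclear RNA. Levels are given as CPM, the read pair counts scaled to a common TMM-normalized library size, and as RPKM (CPM per kilobase of exon) where genes are compared. A member counts as called where edgeR's quasi-likelihood test gave a Benjamini-Hochberg adjusted p under 0.05 over all genes tested and the log2 fold change (log2FC) exceeded 0.6. All 8 members passed the filter on low counts in both fractions. Among mRNA libraries, IM 6h replicate 3 stood apart from its group: over 3271 other genes called at IM 18h with a log2FC beyond 1, its median position was 71.4% of the way from CTRL to IM 18h, against 47.1% and 47.4% in the other two IM 6h libraries. Defining markers of lymphoid and of monocyte or granulocyte cells were close to 0 (summed over 5 genes each, at most 9.43 and 15.6 CPM in any mRNA library, with 3 and 4 of the 5 below a mean of 1 CPM). In nuclear RNA these sums reached 10.1 and 30.5 CPM. The erythroid markers of the line summed to between 2848 and 15760 CPM in mRNA. KRT8, KRT18 and EPCAM, epithelial markers, were also present (241 to 561 CPM summed with ALB). In such bulk libraries, a change in the share of cells that express a gene and a change in RNA per cell cannot be told apart.

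In untreated cells the members fell into a high and a low group. By mRNA RPKM, EPB41 was highest at 57.1 ± 6.16 (SD, n = 3), followed by ANK1 at 36.4 ± 5.87, GYPC at 33.9 ± 2.39, TMOD1 at 21.3 ± 7.36, SPTB at 12.5 ± 2.84 and GYPB at 11.97 ± 2.84. SLC4A1, at 1.15 ± 0.442, and EPB42, at 0.534 ± 0.267, were far below. ANK1 and GYPC, and SPTB and GYPB, were neighbors within their spread. Nuclear RNA gave the same last 4 places, with ANK1 first at 56.1 ± 8.53 RPKM and EPB41 at 45.1 ± 0.698. Band 3 and protein 4.2, both partners of ankyrin, were thus the least abundant transcripts of the set, although the ankyrin transcript itself was among the most abundant.

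After 18 h of imatinib the 3 libraries of each fraction lay above every library of CTRL, IM 1h, JTE and KCl (21 mRNA and 12 nuclear libraries) for all 8 members, which was so for 14.5% of all genes tested in mRNA and 16.4% in nuclear RNA. By the test, 6 members were called higher in mRNA, against a background of 17.2% of the 18095 genes tested, and 8 in nuclear RNA, against 17.2% of 21929. Without the fold threshold all 8 were called higher in mRNA, against 22.8% of genes. No member fell. The median log2FC of the members was 1.28 in mRNA and 1.23 in nuclear RNA, beside medians of 0.04 and 0.00 over all genes tested. Fitted ratios ran from 1.41-fold (EPB41) to 92.5-fold (SLC4A1) in mRNA.

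**Figure D1:**
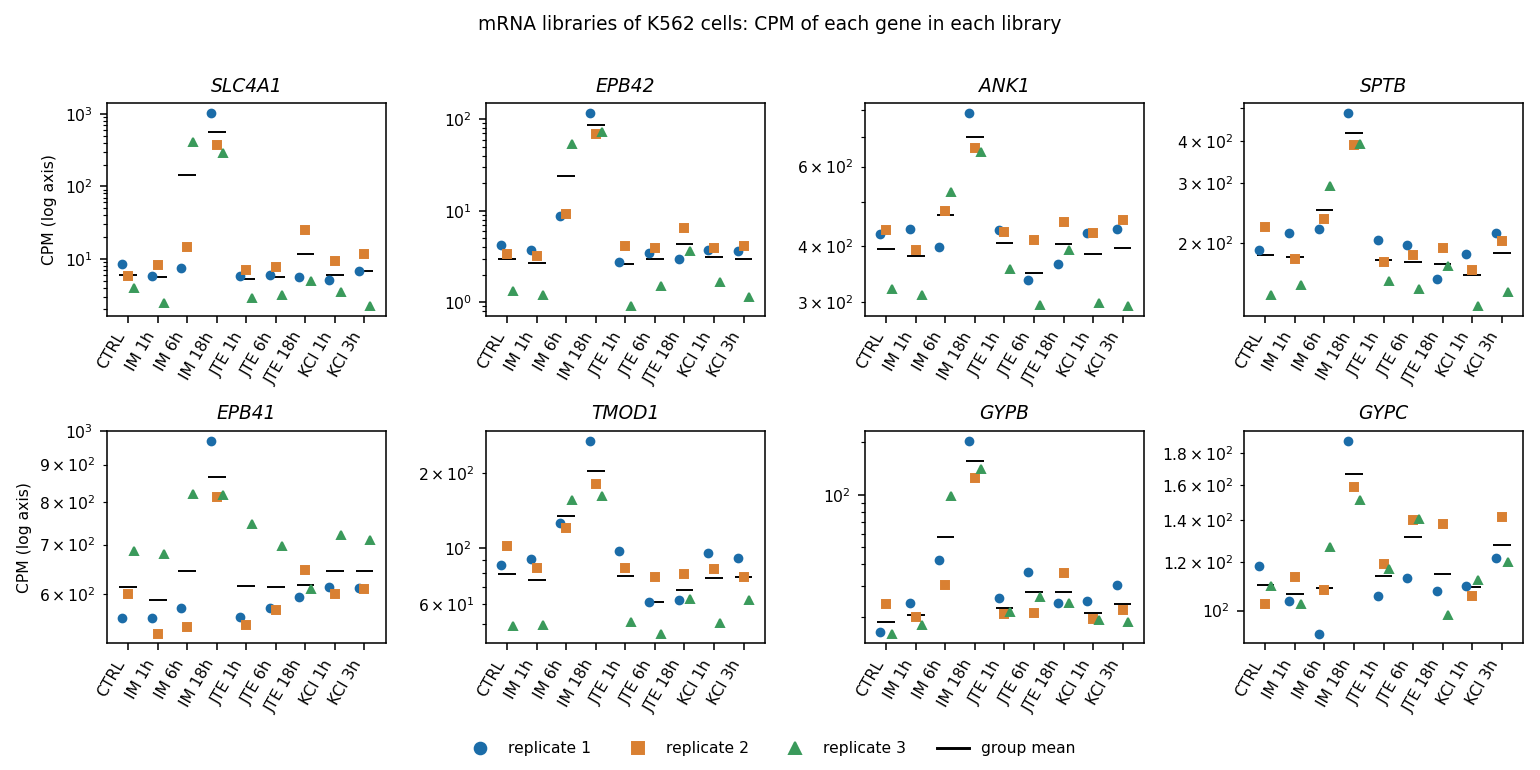
CPM (log axis) of the 8 genes in each of the 27 mRNA libraries by group; symbols mark the replicate number and black lines the group means. The 3 IM 18h libraries are above all CTRL, IM 1h, JTE and KCl libraries in every panel, and IM 6h replicate 3 (triangle) lies far above the other two IM 6h libraries for SLC4A1 (413 against 7.46 and 14.3 CPM).

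SLC4A1, the anion exchanger that anchors the lattice, changed most. Its mRNA stood at 8.54, 5.76 and 3.90 CPM in the CTRL libraries and at 1028, 374 and 284 CPM in the IM 18h libraries. The log2FC was 6.53 (SE 1.28, edgeR adjusted p 0.000432). Nuclear SLC4A1 was at 2.46, 5.15 and 11.3 CPM in CTRL and at 1127, 379 and 664 CPM at IM 18h (log2FC 6.85, SE 0.83, edgeR adjusted p 5.45e-05). The groups did not overlap, yet the IM 18h libraries differed among themselves by several-fold. The SD of the gene within groups on the log2 scale was 1.29 in mRNA. This was higher than in 99.9% of the 13792 genes with a mean CPM of at least 1, whose median was 0.20. The mRNA figure includes the IM 6h group, where replicate 3 stood at 413 CPM against 7.46 and 14.3. In nuclear RNA, which has no IM 6h group, the SD was 0.866, beside a median of 0.18 over 15679 genes. By RPKM it moved from seventh to first place among the members, at 106 ± 76.8 in mRNA.

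EPB42, the transglutaminase-like protein 4.2 that binds band 3 and ankyrin, also rose steeply, at a lower level. CTRL libraries held 4.24, 3.35 and 1.34 CPM of its mRNA and IM 18h libraries 117, 69.0 and 72.0 CPM (log2FC 4.85, SE 0.73, edgeR adjusted p 2.42e-05). In nuclear RNA the values were 2.32, 3.92 and 5.74 CPM in CTRL and 147, 82.6 and 108 CPM at IM 18h, a log2FC of 4.83 (SE 0.46, edgeR adjusted p 5.07e-06). It remained the least abundant member per length, at 15.4 ± 4.81 RPKM. ANK1, the ankyrin that links both to spectrin, was already abundant and rose less, from 424, 434 and 320 to 790, 662 and 647 CPM in mRNA (log2FC 0.83, SE 0.18, edgeR adjusted p 0.000586). Its nuclear log2FC was 0.71 (SE 0.15, edgeR adjusted p 0.000781). The ratio of SLC4A1 to ANK1 in RPKM accordingly went from 0.0310 ± 0.00880 in CTRL mRNA to 1.57 ± 0.952 at IM 18h.

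SPTB, β-spectrin, rose from 191, 224 and 141 to 482, 388 and 392 CPM in mRNA (log2FC 1.18, SE 0.18, edgeR adjusted p 1.87e-05), and its nuclear libraries rose from a mean of 291 ± 63.2 to 636 ± 65.8 CPM (log2FC 1.12, SE 0.25, edgeR adjusted p 0.00217). TMOD1, which caps the pointed ends of the actin filaments, had 85.6, 102 and 48.8 CPM in CTRL mRNA and 270, 181 and 161 CPM at IM 18h, a log2FC of 1.37 (SE 0.30, edgeR adjusted p 0.000856). Nuclear TMOD1 was tighter, with a mean of 86.8 ± 5.37 CPM in CTRL and 220 ± 19.1 CPM at IM 18h (log2FC 1.34, SE 0.12, edgeR adjusted p 2.02e-08). EPB41, protein 4.1, moved least in mRNA, with 555, 600 and 686 CPM in CTRL and 970, 812 and 817 CPM at IM 18h. Its mRNA log2FC of 0.50 (SE 0.14, edgeR adjusted p 0.00736) met the p threshold but not the fold threshold, whereas in nuclear RNA the log2FC of 0.67 met both (SE 0.08, edgeR adjusted p 1.78e-06).

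The glycophorins went separate ways in size. GYPB rose from 16.3, 23.9 and 16.1 CPM in CTRL mRNA to 204, 126 and 140 CPM at IM 18h (log2FC 3.06, SE 0.33, edgeR adjusted p 3.16e-07). Its nuclear log2FC was 3.07 (SE 0.40, edgeR adjusted p 5.96e-05). It became the second member by mRNA RPKM, at 99.95 ± 26.8. GYPC, which ties the membrane to protein 4.1, had 118, 103 and 109 CPM in CTRL and 189, 159 and 151 CPM at IM 18h. Its mRNA log2FC of 0.595 (SE 0.13, edgeR adjusted p 0.000541) stopped just short of 0.6, and its nuclear log2FC of 0.63 (SE 0.13, edgeR adjusted p 0.000481) lay just beyond it. GYPC was the member closest to the threshold: its mRNA was called without CTRL replicate 1 (0.64) or without the second or the third IM 18h replicate (0.60 and 0.65), and also with replicate number as a block once CTRL replicates 1 and 2 were exchanged (0.60, edgeR adjusted p 5.14e-05); its nuclear call was lost without nuclear CTRL replicate 1 (0.57).

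**Figure D2:**
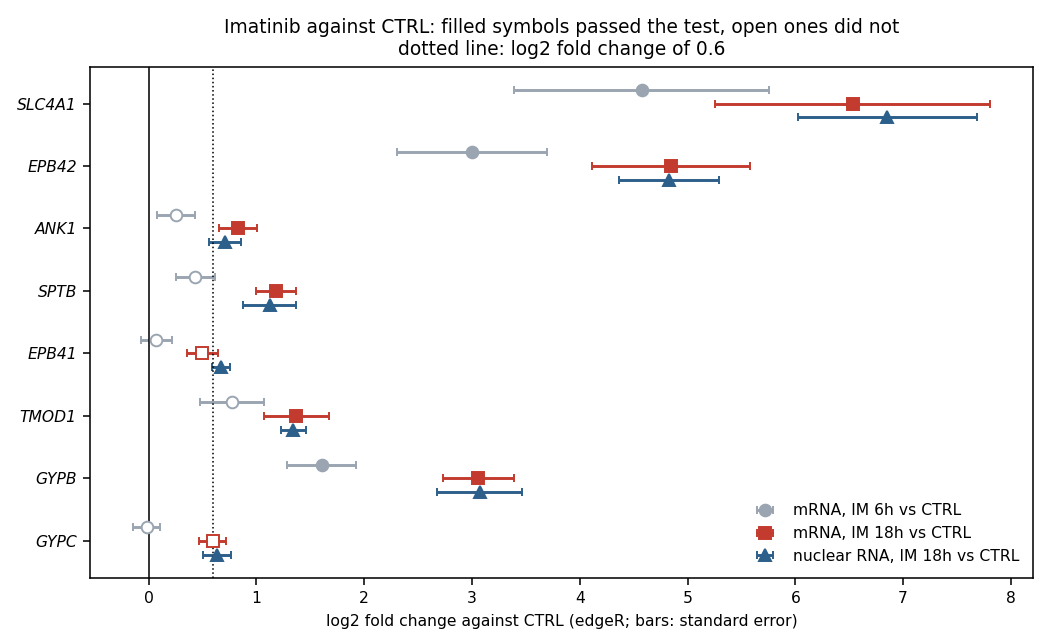
Log2 fold changes against CTRL with standard errors for IM 6h and IM 18h mRNA and IM 18h nuclear RNA; filled symbols were called and open ones were not, and the dotted line marks the threshold of 0.6. SLC4A1, EPB42 and GYPB are well to the right of the others at IM 18h, and the mRNA and nuclear estimates at IM 18h lie within each other's error for all genes but EPB41.

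Nuclear RNA and mRNA were not found to respond differently. When the 2 responses were compared in 1 model, no member was called at IM 18h (0.0901% of 19967 genes tested were), and the differences ran from -0.07 for ANK1 (SE 0.18) to 0.38 for SLC4A1 (SE 1.01), all with edgeR adjusted p of 1. No member was called in the same test at IM 1h (0% of genes), JTE 1h (0.0605%) or KCl 1h (0.668%) either. In all 4 of these tests no member had an unadjusted p under 0.05, and DESeq2 called none. The errors for SLC4A1 and EPB42 (0.58 at IM 18h) leave room for sizeable differences.

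**Figure D3:**
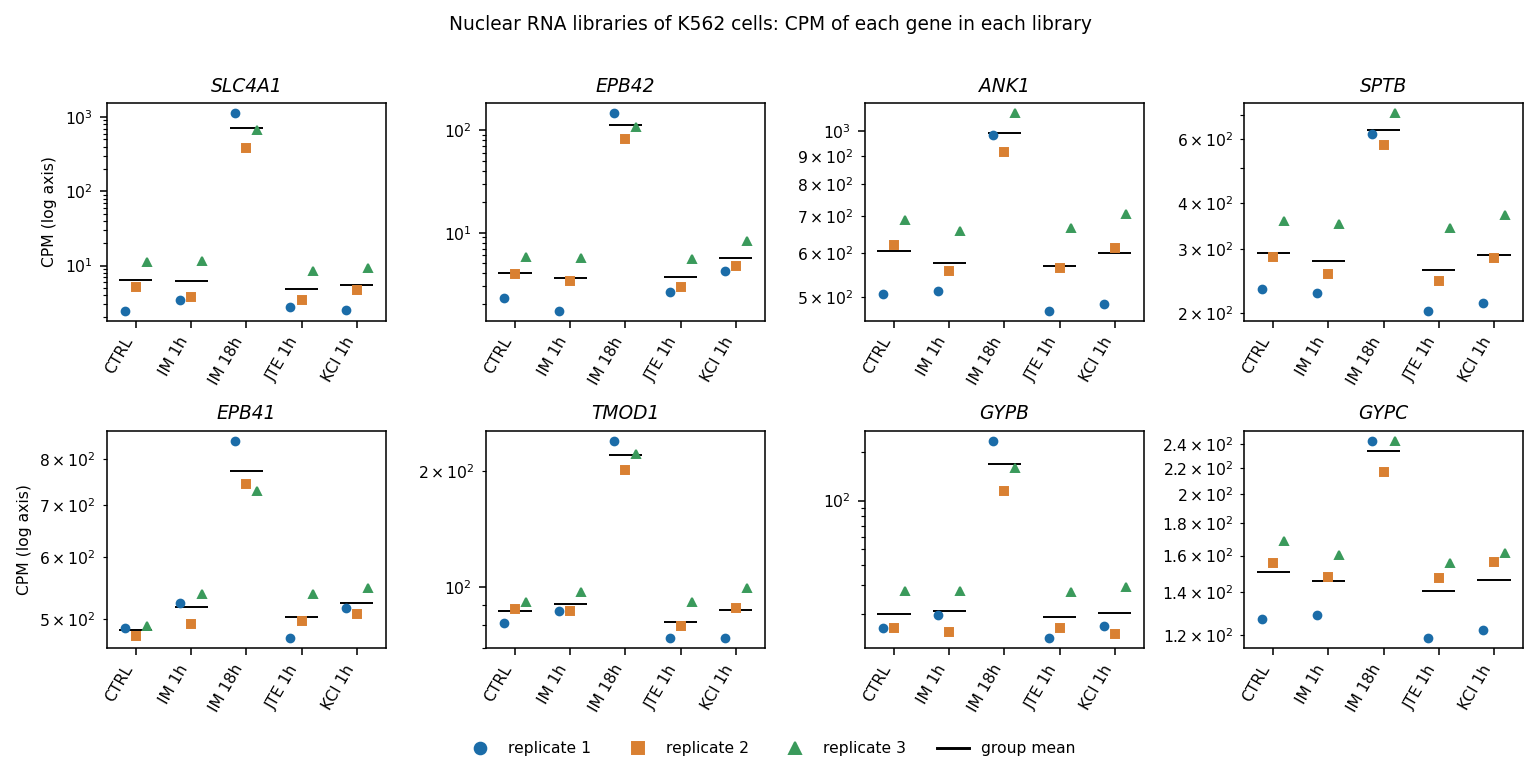
CPM (log axis) of the 8 genes in each of the 15 nuclear RNA libraries by group, marked as in the plot of mRNA libraries. IM 18h is above all other groups in every panel, and replicate 3 (triangle) was the highest of its group in 4 or 5 of the 5 groups for each gene.

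At IM 1h no member was called in mRNA (0.0166% of genes were called) or in nuclear RNA (0.0456%), with log2FC values between -0.15 and 0.14 in mRNA and between -0.13 and 0.10 in nuclear RNA; no member had an unadjusted p under 0.05 and DESeq2 called none in either fraction. At IM 6h, measured in mRNA, 3 members were called higher (SLC4A1, EPB42 and GYPB), against 5.82% of genes. This count rested largely on 1 library, IM 6h replicate 3. SLC4A1 stood at 7.46, 14.3 and 413 CPM in the IM 6h libraries, EPB42 at 8.84, 9.17 and 53.9 CPM, and GYPB at 42.3, 30.5 and 98.6 CPM. The first 2 libraries were thus near or moderately above CTRL. Replicate 3 lay within the IM 18h range for SLC4A1 (284.5 to 1028 CPM) and approached it from below for EPB42 and GYPB.

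With all libraries the log2FC at IM 6h was 4.57 for SLC4A1 (SE 1.18, edgeR adjusted p 0.0125), 3.00 for EPB42 (SE 0.70, edgeR adjusted p 0.0056) and 1.60 for GYPB (SE 0.32, edgeR adjusted p 0.00145). Without IM 6h replicate 3 only GYPB was called: its log2FC became 0.93, that of EPB42 1.57 (edgeR adjusted p 0.0995) and that of SLC4A1 0.81 (edgeR adjusted p 0.597). Without CTRL replicate 3 the count was 2, as SLC4A1 was not called (log2FC 4.30, edgeR adjusted p 0.0668). In a fit of the 2 groups alone none was called. In each of the 3 IM 6h libraries EPB42 and TMOD1 lay above all 21 libraries of the groups other than IM 6h and IM 18h, as did 4.75% of all genes tested. TMOD1 held 127, 121 and 156 CPM at IM 6h, and its log2FC of 0.77 was not called (SE 0.30, edgeR adjusted p 0.0806). With replicate number as a block it was called (0.86, edgeR adjusted p 0.00622), as it was when the numbers of CTRL replicates 1 and 2 were also exchanged (0.87, edgeR adjusted p 0.00517). Without a low-count filter it was called too (0.73, edgeR adjusted p 3.9e-06). The other 4 members had log2FC values between -0.02 (GYPC) and 0.43 (SPTB) and were not called.

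**Figure D4:**
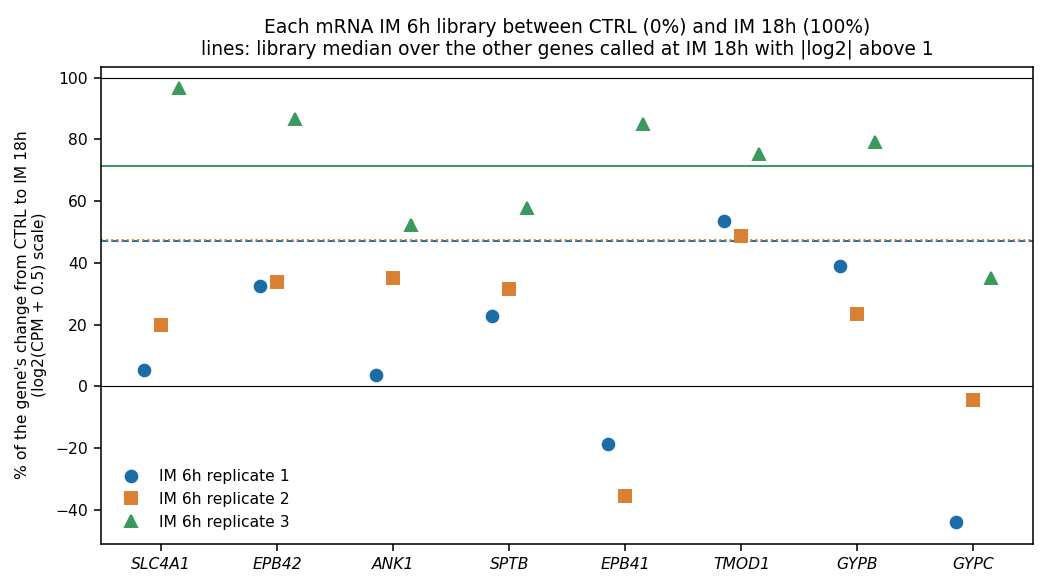
Position of each gene in the 3 IM 6h mRNA libraries between CTRL (0%) and IM 18h (100%) on the log2(CPM + 0.5) scale; horizontal lines give each library's median over the other genes called at IM 18h (47.1%, 47.4% and 71.4%). SLC4A1 was at 5.4%, 19.8% and 96.6%, whereas TMOD1 was at 53.6%, 48.6% and 75.3%.

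Positions between CTRL and IM 18h varied between libraries and between members, and no difference between members was tested. In the IM 1h libraries, where no member was called, positions ran from -43.4% to 30.7% over the members and from -19.8% to 8.6% for EPB42. In IM 6h replicates 1 and 2, TMOD1 had covered 53.6% and 48.6% of its change to IM 18h, close to the library medians of 47.1% and 47.4%. EPB42 was at 32.6% and 33.7%, and SLC4A1 at 5.4% and 19.8%. GYPC and EPB41 were at or below CTRL in both (-43.9% and -4.3%, and -18.6% and -35.6%). GYPC and EPB41 values of this size, except the first of GYPC, were also seen at IM 1h. In replicate 3 the order was different, with SLC4A1 at 96.6%, EPB42 at 86.7%, EPB41 at 84.9% and GYPC at 35.0%.

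Set directly against IM 6h, IM 18h mRNA was called higher for SPTB, GYPB and GYPC, 3 members against 2.48% of genes. The log2FC was 0.75 for SPTB (SE 0.18, edgeR adjusted p 0.0136), 1.46 for GYPB (SE 0.31, edgeR adjusted p 0.00669) and 0.61 for GYPC (SE 0.13, edgeR adjusted p 0.00465). The 3 IM 18h libraries lay above the 3 IM 6h libraries for 6 members, against 15% of genes. Without the fold threshold ANK1 (0.58, edgeR adjusted p 0.0423) was called too, against 3.66% of genes. These counts turned on single libraries, and the number of all genes called moved with them, from 798 with all libraries. Leaving out IM 6h replicate 3 gave 7 members and 1474 genes (SLC4A1 at a log2FC of 5.69), and leaving out IM 6h replicate 2 gave 2 members and 272 genes. Leaving out replicate 1 of IM 6h or of IM 18h gave 0 members and 182 or 220 genes, although the log2FC stayed at 0.66 and 0.64 for SPTB, 1.28 and 1.22 for GYPB and 0.50 and 0.51 for GYPC. GYPC means were 110 ± 7.76 CPM in CTRL, 109 ± 17.5 CPM at IM 6h and 166 ± 19.7 CPM at IM 18h.

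No member was called by edgeR after JTE or KCl. Background shares were 0.851% of genes at JTE 1h, 13.2% at JTE 6h, 5.39% at JTE 18h, 5.45% at KCl 1h and 11.9% at KCl 3h in mRNA, and 8.52% at JTE 1h and 23.8% at KCl 1h in nuclear RNA. In these 7 comparisons no member had an unadjusted p under 0.05 and DESeq2 called none. GYPB had the lowest adjusted p of the members at JTE 18h, with a log2FC of 0.57 (SE 0.32, edgeR adjusted p 0.303). Its JTE 18h libraries held 24.1, 35.6 and 23.9 CPM, the lowest of them level with the highest CTRL library. At JTE 6h its log2FC was also 0.57 (SE 0.32, edgeR adjusted p 0.25). SLC4A1 stood at 5.57, 24.7 and 4.97 CPM at JTE 18h (log2FC 0.94, SE 1.13, edgeR adjusted p 0.69), where replicate 2 alone was raised; without a low-count filter this was called. At KCl 3h its libraries held 6.76, 11.6 and 2.23 CPM, overlapping CTRL, and its standard error at KCl 1h was 1.13, so a change of that size could not have been seen. The tightest members allowed more: for GYPC the log2FC was -0.01 at KCl 1h (SE 0.13), 0.22 at KCl 3h and 0.06 at JTE 18h (SE 0.13). At JTE 6h GYPC had a log2FC of 0.26 (SE 0.13, edgeR adjusted p 0.177). Its KCl 3h libraries held 122, 142 and 120 CPM, above its CTRL libraries at 118, 103 and 109 CPM.

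IM 18h was also set against JTE 18h, the other 18 h treatment. In mRNA 6 members were called higher after imatinib, against 16.7% of genes: SLC4A1 (log2FC 5.60), EPB42 (4.32), GYPB (2.49), TMOD1 (1.58), SPTB (1.27) and ANK1 (0.79). GYPC, at 0.54, and EPB41, at 0.49, met the adjusted p threshold (edgeR, 0.00145 and 0.00805) but not the fold threshold, without which all 8 were called higher, against 23.2% of genes.

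Replicates differed in a patterned way. In mRNA, replicate 3 was the lowest of its group for SLC4A1 in 8 of 9 groups, for ANK1 and TMOD1 in 7, and for SPTB and EPB42 in 6, while for EPB41 it was the highest in 7. In nuclear RNA, replicate 3 was instead the highest in 4 of 5 groups for SLC4A1, EPB41, EPB42, GYPB and TMOD1 and in all 5 for ANK1, SPTB and GYPC. Whether a number marks the same culture in both fractions is not given. With replicate number as a block, 6 members were called at IM 18h in mRNA, 7 once CTRL replicates 1 and 2 were exchanged, and 8 in nuclear RNA. The 6 members called at IM 18h in mRNA were called again with each library left out in turn, where the count was 6 or 7.

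Among 9 other genes of the skeleton, IM 18h mRNA was higher for 4 and lower for 2. Over all 18095 genes tested in mRNA, 3116 were called higher at IM 18h and 2397 lower. In nuclear RNA 3777 of 21929 were called higher and 3375 lower. These counts also stand beside the lists that follow. DMTN, dematin, which bundles actin, rose from 26.8 ± 5.78 to 107 ± 13.7 CPM (log2FC 2.00, SE 0.28, edgeR adjusted p 5.13e-06). ADD2, the β chain of the adducin that promotes spectrin binding to actin, rose by a log2FC of 1.80, ADD1 by 0.75 and MPP1, the p55 partner of protein 4.1, by 0.64. STOM, stomatin, fell by 1.04 and ACTB, β-actin, fell by 0.68 on the log2 scale. TPM1, TPM3 and ADD3 were not called. The median log2FC of this list was 0.47 beside 0.04 over all genes. In nuclear RNA 4 rose and 1 (STOM, -1.22) fell. Nuclear DMTN, ADD2 and ADD1 rose by 2.21, 1.64 and 0.84. JTE 18h also raised 1 gene of this list in mRNA, DMTN (log2FC 0.94, SE 0.27, edgeR adjusted p 0.0297), where 5.39% of all genes were called.

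Of 11 other red cell membrane proteins 10 were tested, and 8 were called higher and none lower at IM 18h in mRNA (median log2FC 1.70). AQP1, the water channel, rose from 2.63 ± 1.07 to 57.5 ± 10.9 CPM (log2FC 4.45, SE 0.46, edgeR adjusted p 1.43e-07). RHCE and RHD, of the Rh blood group, rose by 2.76 and 2.57 and KEL, the Kell glycoprotein, by 2.58. RHAG, at 0.595, and CD47, at -0.02, were not called, and ICAM4, all of whose exon sequence is shared with ICAM4-AS1, was at 0 counts in every library. In nuclear RNA 9 of 10 were called higher and none lower (median 1.75), with log2FC values of 4.51 for AQP1, 2.69 for RHCE, 2.43 for RHD and 2.54 for KEL. After JTE 18h AQP1 was also called higher in mRNA (log2FC 1.72, SE 0.44, edgeR adjusted p 0.0153). RHCE (1.01), RHD (0.76) and KEL (0.50) were not called by edgeR at JTE 18h.

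The counterparts of the members that other tissues use did not rise as a list. Of 11 such genes 9 were tested. At IM 18h in mRNA 2 were higher and 2 lower, with a median log2FC of 0.02. Over all genes tested, 17.2% were called higher and 2397 of 18095 lower. SPTBN1, the β-spectrin of most other cells, fell from 177 ± 9.22 to 64.9 ± 10.6 CPM (log2FC -1.45, SE 0.18, edgeR adjusted p 1.5e-06), and EPB41L2, a relative of protein 4.1, had a log2FC of -0.95 (edgeR adjusted p 0.0198). SLC4A3 rose by 2.83 but stayed at 0.938 ± 0.287 CPM, and ANK3 rose by 0.62. The EPB41L2 call was lost without CTRL replicate 3 (-0.73) or IM 18h replicate 1 (-0.94), and that of ANK3 without any of 3 libraries, CTRL replicates 1 and 3 and IM 18h replicate 1 (log2FC 0.50 to 0.53). The ANK3 log2FC also fell below the fold threshold with no low-count filter (0.54) and with the replicate block (0.597). The same held without genes over 1% of counts (0.58) and in a fit of the 2 groups alone (0.59). In nuclear RNA 1 was higher (SLC4A3, 2.61) and 3 lower (SPTBN1, -1.47; EPB41L2, -0.71, not called without nuclear CTRL replicate 1; and SLC4A2, the anion exchanger of other tissues, -0.65). The ANK3 log2FC was not called there (0.66, edgeR adjusted p 0.151). It was called there with the replicate block (0.67, edgeR adjusted p 2.82e-09) and without a low-count filter (0.65, edgeR adjusted p 6.36e-06). A fit of the 2 groups alone called it too (0.66, edgeR adjusted p 0.038).

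Ratios of members to counterparts per length were chosen with the values above known, and SLC4A3, which rose, is not among them, so they are given as a description. An exact test of IM 18h against CTRL gave no ratio an adjusted p below 0.114. With 3 libraries per group its p could not fall below 0.1, so it decides nothing. SLC4A1 was at 0.0454 ± 0.0163 of SLC4A2 in CTRL mRNA and at 6.54 ± 5.25 times SLC4A2 at IM 18h, with libraries from 2.96 to 12.6. SPTB went from 1.31 ± 0.253 to 8.33 ± 2.12 times SPTBN1, EPB41 from 6.00 ± 1.27 to 15.8 ± 2.23 times EPB41L2, and TMOD1 from 2.06 ± 0.652 to 5.24 ± 1.89 times TMOD3. ANK1 over ANK3 was 45.1 ± 8.68 and 51.1 ± 1.49.

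**Figure D5:**
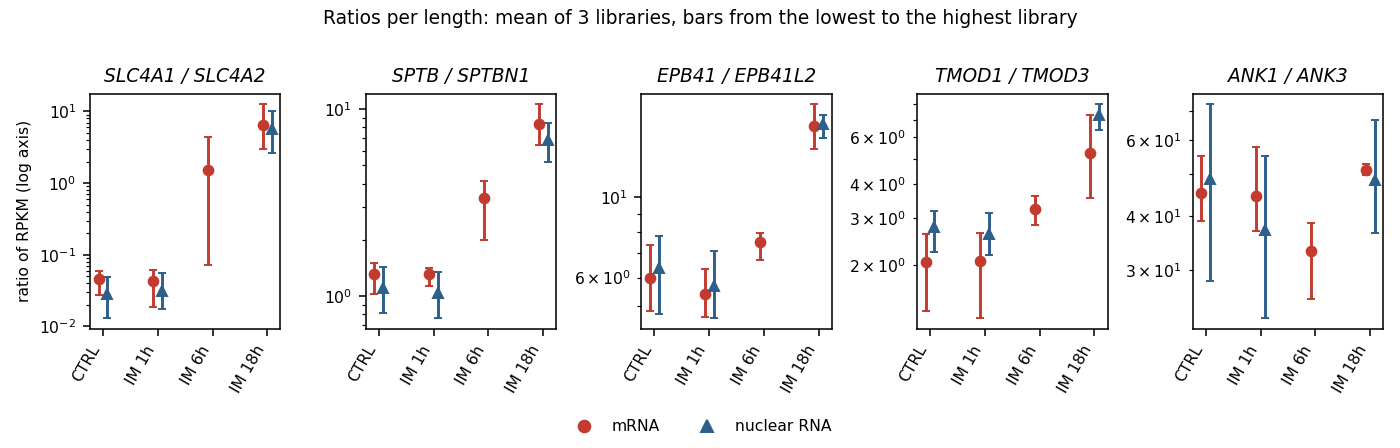
Ratios of RPKM (log axis, a separate scale in each panel) in CTRL, IM 1h, IM 6h and IM 18h; points are means of 3 libraries and bars run from the lowest to the highest library, circles for mRNA and triangles for nuclear RNA. The first 4 ratios are higher at IM 18h than in CTRL in both fractions, and ANK1 over ANK3 is not.

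Erythroid transcription factors were measured beside the members. Of 10 on the list 4 were called higher and 2 lower at IM 18h in mRNA. TAL1 rose by 1.45, GFI1B by 1.31, KLF1 by 1.11 and LMO2 by 0.89, while GATA2 fell by 2.14 and MYB by 1.496 on the log2 scale. GATA1, which binds the GATA words searched above, had a log2FC of -0.20 (SE 0.15, edgeR adjusted p 0.299). In nuclear RNA 5 were higher and 2 lower, with values of 1.38 for TAL1, 1.12 for GFI1B, -2.33 for GATA2 and -1.63 for MYB. Of 7 erythroid line markers, all 6 called were higher in mRNA, among them HBZ (3.08), HBE1 (1.92) and HBG2 (1.61), and in nuclear RNA 5 were called higher (HBZ 2.60, HBE1 1.62, HBG2 1.15). Markers of another lineage moved in the same samples: of 8 megakaryocyte genes 4 were tested and 2 called higher, TUBB1 (3.36, from 13.0 ± 4.27 to 134 ± 21.4 CPM) and ITGB3 (2.82, to 2.21 ± 0.769 CPM), and 1 of the 8 was at 0 in every library. The nuclear log2FC was 3.07 for TUBB1 and 1.86 for ITGB3. All 8 megakaryocyte genes summed to 15.3 to 20.9 CPM in CTRL mRNA and 128 to 167 CPM at IM 18h, most of it TUBB1. The part of either in the members' rise was not tested. Among the remaining markers, CD3D (-4.01), KRT8 (-0.95) and KRT18 (-0.88) were lower in mRNA, and in nuclear RNA their values were -3.31, -0.76 and -0.87. None of the monocyte and granulocyte markers was called in either fraction at IM 18h. In mRNA, 1 of 3 tested was called higher at KCl 1h and 2 at KCl 3h. In nuclear RNA 3 of 4 were called higher at KCl 1h. Over all genes tested, 5.45%, 11.9% and 23.8% were called in these 3 comparisons.

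Genes were also ranked by how closely their mean log2(CPM + 0.5) over the 9 mRNA groups followed each member, among 8805 genes with a mean CPM of at least 10. AHSP, the chaperone of α-globin, was nearest to both SLC4A1 (Pearson r 0.998) and EPB42 (0.997). MYL4 was nearest to SPTB (0.994), CD99L2 to GYPB (0.996), ERBB2 to TMOD1 (0.995), RFX1 to ANK1 (0.993), RELN to EPB41 (0.985) and PRKCSH to GYPC (0.965). Among the members themselves, the closest pair was SLC4A1 and EPB42 (0.995) and the most distant GYPC and TMOD1 (0.571). These are descriptions over 9 group means, which imatinib groups dominate and which share the same libraries.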

How the data were processed

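The authors trimmed and deduplicated paired reads, aligned them to GRCh38.p14 with STAR (unique alignments, introns of at most 10000 bases) and counted read pairs over exons with featureCounts without strand. The deposited values are these raw counts per gene. The annotation release is not given in the sources used here. The canonical transcripts of ANK1, SPTB, EPB41 and TMOD1 hold 3, 3, 6 and 3 longer introns, GYPB and GYPC 1 each. Pairs spanning these may have been lost, which was not checked. The deposited gene lengths, another column, gave RPKM.

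The test was edgeR 4.0.16 under R 4.3.3 (TMM, filterByExpr, robust quasi-likelihood), fitted once per fraction over all its libraries. The thresholds follow the study's methods. Members and lists were chosen with earlier results of these data known. Beside the members, the text names from each list up to 4 genes called at IM 18h in mRNA with the largest log2FC; further names were chosen after their values were seen. Replicates differed by more than counting noise (chi-square per gene 2.23 to 54.2, with 1 expected). The p-values measure the spread between these libraries. Alternatives were DESeq2 1.42.0, other size factors, no filter, no fold threshold, 2 groups only, a replicate block, leaving out abundant genes (over 1% of counts) and each library. Scripts were tested on simulated data. Some genes of the lists are not reported here and were left out of the lists' counts.

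Replicate numbers come from the sample titles. Same-numbered deviations from group means correlated at 0.235 to 0.891 between nuclear CTRL and each nuclear treatment, so those numbers pair the treatments with CTRL. All exceeded 0.1 in 7 of all 10 pairs of nuclear groups. The exceptions were IM 18h with KCl 1h (lowest 0.062), IM 1h (0.009) and JTE 1h (0.077). In mRNA they ran from -0.368 to 0.877 with CTRL, and all exceeded 0.1 in 0 of 8 comparisons with CTRL but in 20 of all 36 pairs of groups. The study's list of library sizes numbers CTRL mRNA replicates 1 and 2 the other way round from the titles and columns, which are followed here. With these exchanged, all exceeded 0.1 in 7 of 8 comparisons (0.121 to 0.877; not JTE 18h, lowest 0.055). A block with this exchange was added after seeing the data.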

Additional observations from a re-analysis of the deposited data

Results flagged for a closer look

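The change between IM 6h and IM 18h passed both thresholds for 3 members: the log2FC of IM 18h over IM 6h mRNA was 0.75 for SPTB, 1.46 for GYPB and 0.61 for GYPC (edgeR adjusted p 0.0136, 0.00669 and 0.00465). ANK1 (0.58, edgeR adjusted p 0.0423) passed the p threshold alone. None of the 3 calls was kept without IM 6h replicate 1 or without IM 18h replicate 1, where the log2FC was 0.66 and 0.64 for SPTB, 1.28 and 1.22 for GYPB and 0.50 and 0.51 for GYPC, and calls over all genes went from 798 to 182 and 220. Groups of 3 libraries are too small for a test of single outlying samples.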

How the results depend on the processing

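Among the counts of members called, 6 at IM 18h in mRNA and 8 in nuclear RNA stayed within 1.5 times under every alternative run (6 to 8, and 7 or 8). The count of 3 at IM 6h was 0 in a fit of the 2 groups alone and 1 to 3 with single libraries left out. With no low-count filter it was 4, TMOD1 (0.73) being added. That of 3 for IM 18h against IM 6h was 0 to 7 with single libraries left out. It was 2 in a fit of the 2 groups alone and 4 with no low-count filter. The count of 0 at JTE 18h was 1 (SLC4A1, log2FC 0.93) with no low-count filter. DESeq2 gave the same counts as edgeR in all of these comparisons. With the replicate block, 4 members were called at IM 6h, TMOD1 (0.86) being added, and 6 at IM 18h in mRNA and 8 in nuclear RNA. As numbered, the mRNA libraries did not pair with CTRL; with CTRL replicates 1 and 2 exchanged, an alternative chosen after seeing the data, the block gave 4 at IM 6h and 7 at IM 18h, GYPC (0.60) being added. Neither block changed another count of members.

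Without a fold threshold all 8 members were called higher at IM 18h in mRNA and 8 against JTE 18h, where 22.8% and 23.2% of all genes were. Over the single log2FC values of members, the call changed in 20 settings towards and 16 away from a call, and no called direction was reversed. For 1 of the 8 members, ANK1, the gene most alike by Pearson was also first by Spearman, tied with others (5 genes in all). Without the length term the rank of SLC4A1 would be 3 in place of 1 among the members at IM 18h in mRNA. Depth limits SLC4A1 and EPB42 in CTRL, where single libraries held 70 to 155 and 24 to 77 counts.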
